A study of Mus musculus with 2 samples.

Results

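The cytosolic ribosomal protein genes described here are the 84 genes, of 31053 in the files, whose symbols begin with Rps or Rpl and name a protein of the small or large subunit (32 and 52 genes) by number, with Rpsa, Rplp0, Rplp1 and Rplp2. They were chosen by symbol alone, without any measured value. The cytosolic ribosome is built in the nucleolus from ribosomal RNA and these proteins, each made from its own mRNA. Most of the mRNAs start with a run of pyrimidines (a 5′ terminal oligopyrimidine tract, TOP) and are translated under control of mTOR signalling. In blood formation the genes are known for Diamond-Blackfan anaemia, a failure of red cell production caused by the loss of 1 copy of any of several of them.

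Their mRNAs were measured by 10x single-cell RNA-seq in LSK CD150+ cells of mouse bone marrow, a sorting gate for cells that lack lineage markers, carry Sca-1 and Kit, and include the haematopoietic stem cells. The model combines a floxed Runx1 allele with Mx1-Cre, a recombinase gene driven by an interferon-inducible promoter. There was 1 library of cells with the genotype label RUNX1 WT and 1 with the label RUNX1 KO, with no replicate of either. The alleles carried by the WT mice, the age and number of mice per library and the use of an inducer are not given in the sources used here. Stem cell markers such as Procr and Hlf were detected, but so were Mpo, Elane, Pf4, Car1 and Klf1, which are genes of granulocytic, megakaryocytic and erythroid progenitors. How much of their signal came from free RNA was not tested.

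The libraries held 9969 (WT) and 11398 (KO-labelled) cell barcodes, 39 of them the same sequence in both. Barcodes were kept as cells from 500 genes up and with no more than 10% mitochondrial UMIs, 9472 and 10769 of them, with a median of 9884 and 9310 UMIs and 3035 and 2811 genes. Runx1 itself stood at 104 and 196 UMIs per 1000000 UMIs of its library (CPM), a ratio of 1.89 (95% interval 1.85 to 1.93). It was thus higher in the library labelled KO, although 3′ tags outside a deleted part check nothing about the genotype, and all directions are those of that label. The libraries also differed by sex: 6690 of the WT cells and 973 of the KO-labelled cells were male by Y-linked UMIs without Xist, and 9 and 8927 were female. With 1 library per genotype nothing was tested, and the exact 95% intervals given cover counting error alone.

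The 4 promoters printed next belong to the pairs on which the later sections turn, Rps27 with Rps27l and Rpl22 with Rpl22l1. Each runs from 250 bases before to 20 bases after the annotated start (RefSeq, GRCm38.p6). Capitals mark matches, on either strand, to 4 motifs searched as exact letters: CTTTCC, the pyrimidine run typical of ribosomal protein gene starts, CCGGAAG (the ETS and GABP motif), AAGATGGC (YY1) and TATAAA, the core of the TATA box.
Rps27 promoter, chr3:90213629-90213898, minus strand: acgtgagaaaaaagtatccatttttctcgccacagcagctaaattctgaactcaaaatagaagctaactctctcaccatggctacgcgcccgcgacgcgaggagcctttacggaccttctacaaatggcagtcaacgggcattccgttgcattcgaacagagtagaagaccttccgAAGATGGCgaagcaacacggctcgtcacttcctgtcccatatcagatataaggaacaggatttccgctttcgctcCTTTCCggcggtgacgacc
Rps27l promoter, chr9:66945836-66946105, plus strand: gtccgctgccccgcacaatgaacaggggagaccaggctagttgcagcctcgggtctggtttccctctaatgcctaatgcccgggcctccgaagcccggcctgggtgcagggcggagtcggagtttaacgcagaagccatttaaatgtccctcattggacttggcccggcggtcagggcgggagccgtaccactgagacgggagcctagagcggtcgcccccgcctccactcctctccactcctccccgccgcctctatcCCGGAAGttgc
Rpl22 promoter, chr4:152325476-152325745, plus strand: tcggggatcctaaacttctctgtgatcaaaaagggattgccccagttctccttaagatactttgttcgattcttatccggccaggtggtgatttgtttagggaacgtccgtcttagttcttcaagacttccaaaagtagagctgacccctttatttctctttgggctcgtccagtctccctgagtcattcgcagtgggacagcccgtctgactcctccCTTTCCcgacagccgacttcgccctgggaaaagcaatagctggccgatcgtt
Rpl22l1 promoter, chr3:28805258-28805527, plus strand: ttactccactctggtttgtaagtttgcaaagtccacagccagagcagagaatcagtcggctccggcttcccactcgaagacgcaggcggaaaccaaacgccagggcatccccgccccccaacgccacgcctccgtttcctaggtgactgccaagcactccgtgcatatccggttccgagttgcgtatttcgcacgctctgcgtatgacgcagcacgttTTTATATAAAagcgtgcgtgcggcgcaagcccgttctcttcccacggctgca
Rps27 had CTTTCC at its start and a match to AAGATGGC upstream, whereas Rps27l had only CCGGAAG. Rpl22 had CTTTCC, and Rpl22l1 had only TATAAA, once on each strand in overlapping positions. In windows of 300 bases (250 before and 50 after the start), found for 64 of the 84 genes, 31 (48.4%) held CTTTCC. The share was 26.8% of 4628 other protein-coding genes at 20 CPM or more and 25.7% of 17491 protein-coding genes in all. CCGGAAG was found in 39.1% of the ribosomal protein genes, against 22.6% of the other expressed genes and 11.9% of all. AAGATGGC was found in 7.81%, 6.09% and 3.23%, close together in the first and second group. A match describes letters in the window and no binding.

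Ribosomal protein mRNAs gave 32963128 of 112655858 UMIs in WT cells and 38474928 of 119272042 in KO-labelled cells. UMI counts from 3′ ends need no division by gene length, and levels are set beside each other between genes on that basis. Reads shared between near-identical gene copies limit such comparisons. Of the 84 genes, 74 were at 1000 CPM or more in each library, 7 lay between 20 and 1000 CPM, and 3 were under 1 CPM. For the 81 genes that reached 20 CPM the median was 3849 CPM in WT and 4204 CPM in KO-labelled cells. Among the 50 genes with most UMIs in a library, 39 (WT) and 41 (KO-labelled) were ribosomal protein genes.

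The highest was Rpl13, a large subunit protein, at 9719 CPM in WT and 10495 CPM in KO-labelled cells. Rpsa, the small subunit protein also known as the laminin receptor, was at 7267 and 8354 CPM. Rps24 was at 6635 and 7748 CPM, and Rps3a1, Rps29, Rplp0 and Rpl32 were also among the 8 highest. These 8 held 19.1% and 19.3% of ribosomal protein UMIs. The small subunit genes together held 45.8% in WT and 45.9% in KO-labelled cells, so the balance between the subunits was nearly the same in both libraries.

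At the other end stood Rpl7l1 (127 and 129 CPM), Rpl36al (143 and 151 CPM), Rpl27 (359 and 388 CPM), Rps27l (407 and 337 CPM), Rpl13a (414 and 414 CPM), Rpl22l1 (809 and 832 CPM) and Rpl31 (825 and 812 CPM). Of these, 4 are paralogues, proteins encoded by a second gene that resembles a core ribosomal protein. The low levels of Rpl13a, Rpl27 and Rpl31, which are core proteins, are uncertain because these genes have many near-identical processed copies that can share reads. The 10 copies with names of their own outside the rule, which belong to several members and none to Rpl31, summed to 118 and 122 CPM. The largest was Rps27rt (35.6 and 38.0 CPM), named after Rps27, the partner of Rps27l. Whether reads shared with copies changed any level was not tested. The tissue-restricted paralogues were nearly silent. Rpl39l, known from the testis, had 42 UMIs in WT and 15 in KO-labelled cells. Rpl3l, of heart and skeletal muscle, had 5 and 12. Rpl10l, which stands in for X-linked Rpl10 in male germ cells, had 1 and 3. Their ratios have wide intervals, 0.337 (0.174 to 0.621), 2.27 (0.743 to 8.21) and 2.83 (0.228 to 149), and only that of Rpl39l lies to one side of 1.

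Per cell, the share of UMIs from ribosomal protein genes was higher in the KO-labelled library. Pooled over kept cells it was 29.3% in WT and 32.3% in KO-labelled cells, a ratio of 1.102 (1.102 to 1.103). The median cell was at 30.1% in WT and 33.4% in KO-labelled cells. The 5th to 95th percentiles ran from 22.6% to 36.3% and from 25.6% to 39.3%, so the distributions overlapped widely. Of KO-labelled cells, 78.7% lay above the WT median, and 57.8% above the 75th percentile of WT cells. The spread between cells (SD 4.42 and 4.82 points) was far wider than counting alone gives for cells of this depth (0.492 and 0.505 points). Among male cells the pooled shares were 29.1% and 32.5%.

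Cells of 5 marker classes were then compared. A cell was in a class with 1 or more UMIs of Procr (a receptor of stem cells), Mpo (the myeloperoxidase of granulocyte progenitors), Car1 (the carbonic anhydrase of erythroid progenitors) or Mki67 (a protein of cycling cells), or with 3 or more of Pf4 (a platelet chemokine), and could be in several classes. Second markers were mostly higher in the class they belong to than in all cells, and examples are given. Hlf was at 242 CPM in WT and 247 CPM in KO-labelled Procr-positive cells, against 79.9 and 74.3 CPM in all cells. Ctnnal1, another stem cell gene, was an exception, at 13.1 and 3.94 CPM against 12.4 and 5.26 CPM in all cells. Elane was at 1248 and 1415 CPM in Mpo-positive cells (347 and 418 in all), Klf1 at 109 and 140 CPM in Car1-positive cells (42.1 and 46.5 in all) and Itga2b at 309 and 470 CPM in Pf4-positive cells (176 and 222 in all). The classes were not pure: of Mpo-positive cells, 28.2% (WT) and 14.9% (KO-labelled) were also Pf4-positive. The Pf4 cut was the same in both libraries, although Pf4 stood at 1483 and 485 CPM in all cells. Within the Pf4 class, Pf4 was at 3479 and 1991 CPM, Vwf at 89.1 and 47.9 CPM and Gp1bb at 9.03 and 8.08 CPM. Gp9 was at 83.1 and 185 CPM and Treml1 at 94.6 and 285 CPM. The class thus held unlike cells in the 2 libraries, and the effect on its share was not tested.

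The share was higher in the KO-labelled library in all 5 classes and in cells of none. In Procr-positive cells (938 WT and 788 KO-labelled) it was 30.8% and 33.1%, and in Pf4-positive cells (3178 and 2042) 28.3% and 30.6%. In Mpo-positive cells (2018 and 2551) it was 28.9% and 31.9%, and in Car1-positive cells (2379 and 2302) 29.9% and 32.3%. Cells with Mki67 (5474 and 5102) had 28.3% and 30.7%. Cells of none of these classes (1526 and 2777) had the highest share in both libraries, 31.2% and 34.8%, and also the largest difference. They were not a neutral reference. Hlf was at 151 and 113 CPM in them (79.9 and 74.3 in all cells) and Ly6a at 107 and 92.8 CPM (35.5 and 49.0). Ctnnal1 was lower, at 9.98 and 3.87 CPM (12.4 and 5.26). The 5 cycling genes summed to 122 and 93.7 CPM (1636 and 1481 in all cells), with Mki67 absent by definition. Cells of no class were 16.1% and 25.8% of kept cells and differed between the libraries. Their 6 stem cell genes summed to 386 and 243 CPM. The 6 megakaryocyte genes summed to 283 and 459 CPM and the 7 erythroid genes to 830 and 991 CPM. Treml1 (25.1 and 101 CPM), Itga2b (106 and 223) and Hbb-bs (28.7 and 355) were higher in the KO-labelled library. Vwf (15.0 and 4.07 CPM) and Car2 (741 and 462) were lower.

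**Figure D1:**
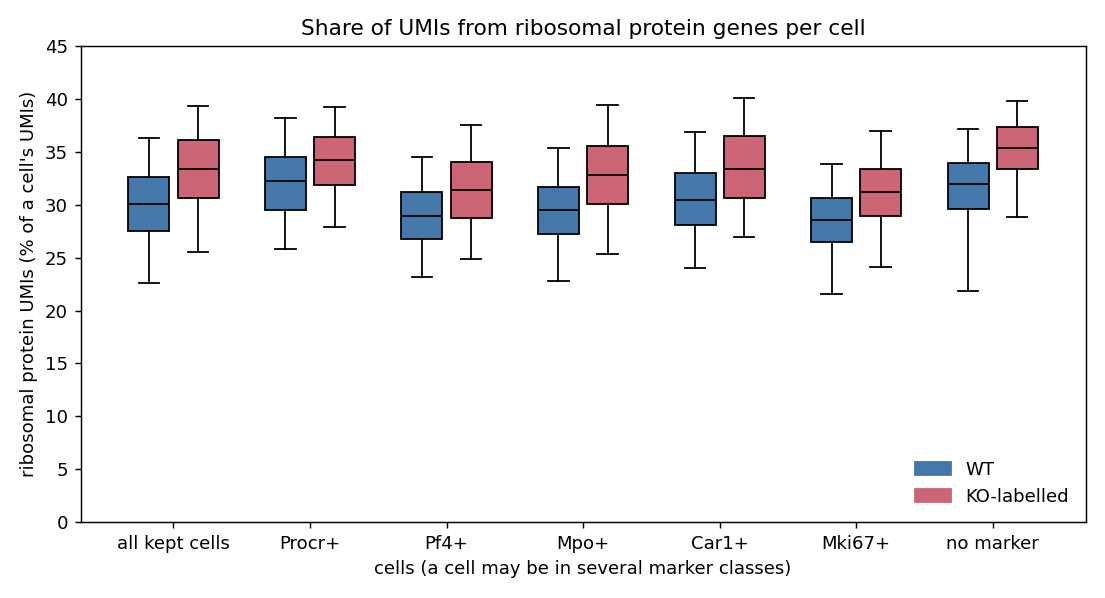
Share of each cell's UMIs that came from ribosomal protein genes (y axis, percent), in all kept cells, in 5 marker classes and in cells of no class, for the WT and KO-labelled libraries. Boxes span the 25th to 75th percentile with the median as a line, and whiskers run from the 5th to the 95th percentile of cells; the KO-labelled median is above the WT median in every pair, with wide overlap.

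Cycling cells had the lowest shares within every lineage class. Procr-positive cells without an Mki67 UMI had 33.3% (WT) and 35.3% (KO-labelled), and those with one 28.9% and 31.1%. For Pf4-positive cells the values were 31.0% and 33.2% without Mki67 and 27.7% and 29.5% with it. Mpo-positive cells had 31.5% and 34.8% without and 28.3% and 30.8% with it, and Car1-positive cells 32.8% and 35.9% without and 29.3% and 31.1% with it. In each of these 8 settings the KO-labelled library was higher, by a ratio of 1.06 to 1.104. Mki67-positive cells were also deeper (a median of 12734 and 12797 UMIs, against 6495 and 6823 in cells of no class). With both kinds of cell given the same weights in bins of UMIs per cell, Mki67-positive cells remained 2.53 (WT) and 3.14 (KO-labelled) points under cells of no class. The Pf4 class then lay 0.999 and 1.81 points under them, and the Mpo class 0.889 and 0.858 points. For the Procr and Car1 classes the depth-weighted difference from cells of no class was of opposite sign in the libraries, +1.59 and -0.23 points for Procr and +0.54 and -0.03 points for Car1.

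The share also moved with depth. In WT it was 26.8% in cells under 4000 UMIs, 32.0% from 4000 to 6000 UMIs, 31.9% from 6000 to 8000 and 28.3% at 24000 or more. In KO-labelled cells the same bins had 27.8%, 34.4%, 35.3% and 30.45%. The KO-labelled share was higher in all 8 bins, by a ratio between 1.04 and 1.14. Across single cells of 1 library, which are not replicates, Spearman's rho between share and log10 UMIs was -0.33 in 9472 WT cells and -0.42 in 10769 KO-labelled cells. Both quantities contain the cell's UMI total.

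**Figure D2:**
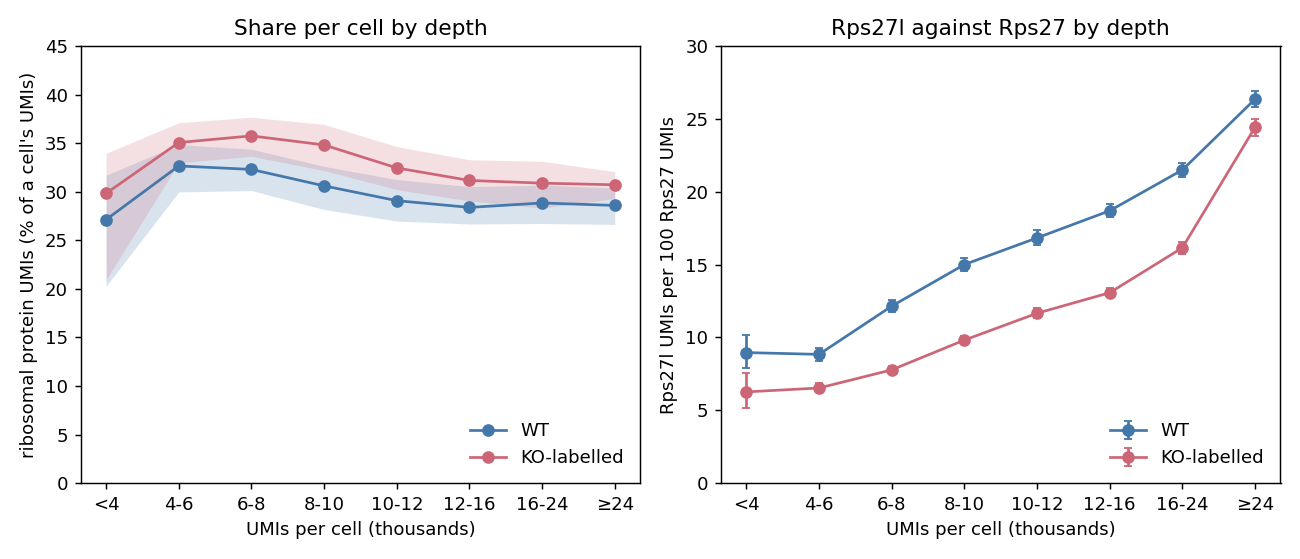
Left, share of UMIs from ribosomal protein genes per cell (y axis, percent) by UMIs per cell in units of 1000 (x axis), as the median with the 25th to 75th percentile shaded. Right, Rps27l UMIs per 100 Rps27 UMIs in the same bins with exact 95% counting intervals; the KO-labelled library is higher in all 8 bins on the left and lower in all 8 on the right.

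Other measures differed between the libraries beside the share, and their part in it was not tested. The median mitochondrial share was 4.94% in WT and 4.35% in KO-labelled cells. In cells with under 3% mitochondrial UMIs (167 and 239) the ribosomal protein share was nearly equal, 23.68% and 23.74%, and in those from 3% to 4% (672 and 2869) it was 27.0% and 31.3%. It was 28.9% and 32.6% from 4% to 5% (4180 and 5629 cells) and 30.1% and 34.0% from 5% to 6% (3097 and 1712). From 6% to 8% (1249 and 286) it was 31.4% and 32.4%, and from 8% up (107 and 34) 26.7% and 28.3%. Markers of megakaryocytes (6 genes) summed to 1804 CPM in WT and 907 CPM in KO-labelled cells, but Pf4 alone went from 1483 to 485 CPM. Vwf and Gp1bb were also lower, while Itga2b (ratio 1.27), Gp9 (1.41) and Treml1 (2.33) were higher. The 6 stem cell genes summed to 201 and 160 CPM. Of these, Ly6a was higher (ratio 1.38), while Mecom (0.369), Fgd5 (0.304), Ctnnal1 (0.425), Procr and Hlf were lower. The 6 genes of granulocyte and monocyte progenitors summed to 2362 and 2566 CPM. Mpo, Elane, Ctsg and Prtn3 were higher, while Ms4a3 (0.667) and Calr (0.774) were lower. The 5 cycling genes, all lower, summed to 1636 and 1481 CPM. The 7 erythroid genes summed to 1524 and 1871 CPM, with Hbb-bs going from 134 to 517 CPM and Car1 from 495 to 392 CPM.

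Of cells that the gate should exclude, neutrophil markers (5 genes, all higher) summed to 109 and 593 CPM. The markers of basophils and mast cells (4 genes, 287 and 165 CPM in sum) went in opposite directions. Mcpt8 (108 and 0.755 CPM), Prss34 (109 and 0.0587 CPM) and Fcer1a (23.6 and 0.176 CPM) were near 0 in the KO-labelled library, while Cpa3 was at 46.4 and 164 CPM. The markers of T and NK cells (4 genes) summed to 276 and 143 CPM, nearly all from Nkg7 (275 and 141 CPM), and the defining Cd3e, Cd3d and Ncr1 were under 1 CPM in both libraries. B cell markers (4 genes) summed to 33.8 and 38.8 CPM, mostly Cd79b, with Ebf1 under 1 CPM, and macrophage markers (4 genes) to 18.5 and 14.6 CPM. No marker of these lists was at 0 in either library. Malat1 and Neat1, nuclear RNAs, summed to 10264 and 11158 CPM.

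Cells with under 10% ribosomal protein UMIs were rare, 33 WT cells (0.348%, exact interval 0.240 to 0.489) and 70 KO-labelled cells (0.650%, 0.507 to 0.821). The genes that led them were immunoglobulin genes in both libraries (Igkc and Jchain among them), with Hbb-bs, the adult beta globin, and S100a9, a neutrophil protein, in the KO-labelled library.

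Gene by gene, most of the group was slightly higher in the KO-labelled library. Of the 81 members that reached 20 CPM in one library or both, 74 were higher, against 34.9% of all 5904 genes at that level, and 7 were lower, against 65.1%. The median log2 ratio was 0.13 (25th to 75th percentile 0.10 to 0.17), while all genes had -0.07 and the 53 other genes at 1000 CPM or more had -0.05. A ratio of 1.1-fold or more was reached upward by 40 genes (14.7% of all genes) and downward by 1, Rps27l (34.8% of all genes). No member reached a log2 ratio of 0.32, the larger threshold used, in either direction, against 5.3% of all genes upward and 9.81% downward. With TMM scaling, which moved the median of all genes from -0.07 to 0.03, 80 of 81 were higher, beside 57.3% of all genes, and only Rps27l was lower.

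**Figure D3:**
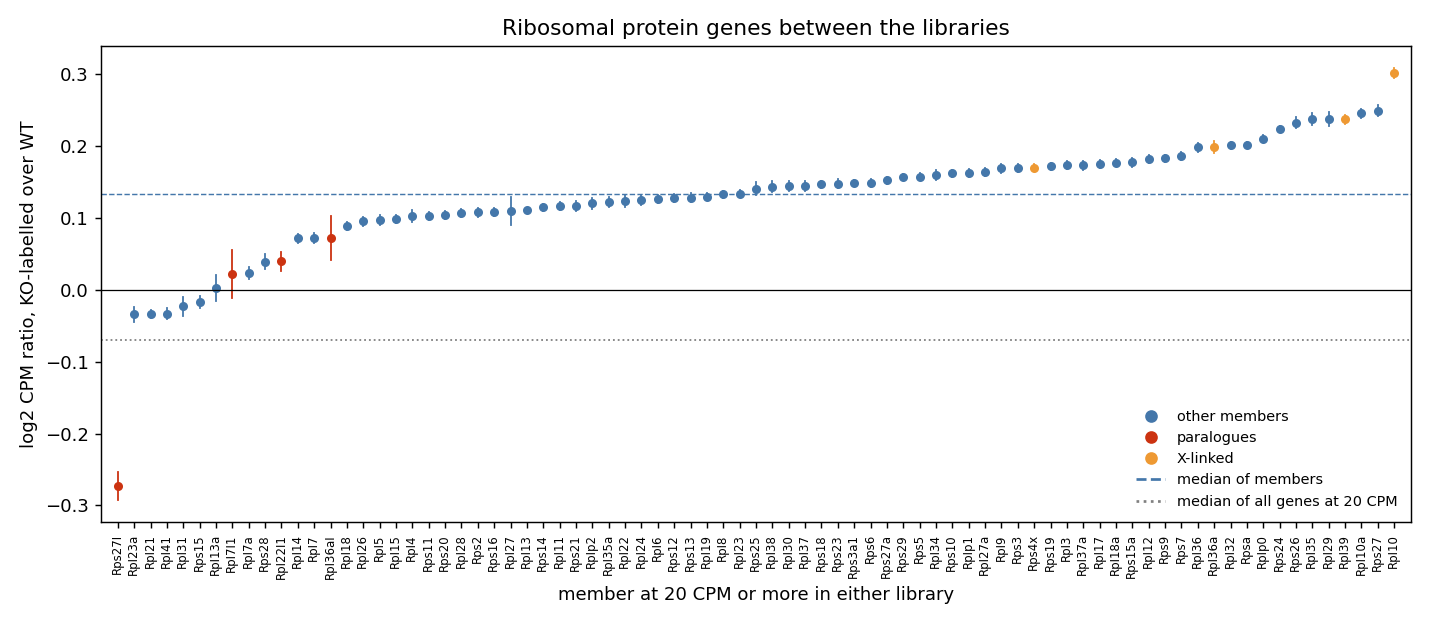
Log2 ratio of CPM, KO-labelled over WT, for 79 of the 81 ribosomal protein genes with 20 CPM in one library or both (x axis, in order of the ratio), with exact 95% counting intervals. Colours mark paralogues and X-linked genes, the dashed line the median of the group (0.13) and the dotted line the median of all genes (-0.07); Rps27l lies alone at the left end at -0.27.

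Small subunit and large subunit genes had similar medians. Of 32 small subunit genes 29 were higher, with a median log2 ratio of 0.15, and of 49 large subunit genes 45 were higher, with a median of 0.13. The 3 stalk proteins, which recruit translation factors to the large subunit, were all higher. Rplp0 was at 6137 CPM in WT and 7100 CPM in KO-labelled cells (ratio 1.16), Rplp1 at 4507 and 5045 CPM (1.12) and Rplp2 at 2369 and 2574 CPM (1.09). Rpl5 and Rpl11, which join the ribosome together with 5S RNA and can bind Mdm2, the inhibitor of p53, had smaller ratios. Rpl5 was at 2729 and 2920 CPM (1.07) and Rpl11 at 4180 and 4533 CPM (1.08). Of the proteins that line the exit tunnel for the new peptide, Rpl4 had a ratio of 1.07, Rpl17 of 1.13 and Rpl39 of 1.18. Rps27a, made as a fusion with ubiquitin, had a ratio of 1.11.

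The largest ratio was that of Rpl10 (ENSMUSG00000008682, chrX:74270812-74273135, plus strand, GRCm38), which completes a late step of large subunit assembly. It was at 2220 CPM in WT and 2736 CPM in KO-labelled cells, a ratio of 1.23 (1.226 to 1.239). Rps27, a small subunit zinc finger protein, followed with 2259 and 2684 CPM (1.19), then Rpl10a with 3353 and 3976 CPM (1.19). Rpl39 (3505 and 4132 CPM), Rpl29 (1382 and 1630 CPM) and Rpl35 (1958 and 2308 CPM) each had a ratio of 1.18. Rps26 (1957 and 2299 CPM) and Rps24 (6635 and 7748 CPM) had 1.17. Rpl10 and Rpl39 are X-linked, as are Rps4x and Rpl36a, and the KO-labelled library held mostly female cells. All 4 X-linked genes were higher, with a median log2 ratio of 0.22. Between male cells only, the log2 ratio was 0.33 for Rpl10, 0.26 for Rpl39, 0.24 for Rpl36a and 0.18 for Rps4x. The median of the whole group was 0.15 between male cells and 0.13 with all cells. Only 973 KO-labelled cells were male, and the part of sex in these ratios was not tested.

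Among the 17 genes of the list for Diamond-Blackfan anaemia, 16 were higher, with a median log2 ratio of 0.12, close to that of the whole group. Rps19, the gene most often mutated in the disease, was at 5157 CPM in WT and 5810 CPM in KO-labelled cells (ratio 1.13). Rps7 was at 4362 and 4964 CPM (1.14) and Rps10 at 4807 and 5377 CPM (1.12), while Rps28 was at 1187 and 1219 CPM (1.03).

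Apart from Rps27l, the lower genes described here were close to 1. Rpl23a had a ratio of 0.977, Rpl21 of 0.977, Rpl41 of 0.977, Rpl31 of 0.984 and Rps15 of 0.988. All 5 of these were above 1 with TMM scaling or with mitochondrial and ribosomal protein genes left out of the total. Across the 5 classes and the cells of none, 71 of the 81 genes were higher in the KO-labelled library in all 6 groups of cells. Of all genes at 20 CPM or more, between 34.2% (Mpo class) and 41.5% (Procr class) were higher in a single group. The share of all genes higher in every group is not given. The classes share cells, so the groups do not repeat the result independently. Rps27l was lower in all 6 groups. Rpl21, Rpl23a, Rpl31 and Rpl41 were higher in 1 group, Rpl13a and Rps15 in 3 and Rpl22l1 in 4. The median log2 ratio of the group was 0.10 in Procr-positive, 0.11 in Pf4-positive, 0.14 in Mpo-positive, 0.11 in Car1-positive and 0.11 in Mki67-positive cells, and 0.16 in cells of none.

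Rps27l stood apart from the rest of the group by the rule used here, a log2 ratio 0.5 or more from the median of the group in both libraries. It encodes a paralogue of Rps27 and is known as a target gene of p53. Rps27l (ENSMUSG00000036781) lies at chr9:66946086-66949516 on the plus strand, and Rps27 (ENSMUSG00000090733) at chr3:90212522-90213651 on the minus strand (GRCm38, GENCODE M21). Between libraries none of the 81 genes that reached 20 CPM was 0.5 or more from the median. Rps27l came nearest, with 45892 UMIs (407 CPM) in WT and 40211 UMIs (337 CPM) in KO-labelled cells, a ratio of 0.828 (0.817 to 0.839). Its partner Rps27 was the second highest ratio of the group, so the pair moved in opposite directions.

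Between classes Rps27l was the only gene to meet the rule. In cells of no class it was at 317 CPM in WT and 264 CPM in KO-labelled cells, and in Procr-positive cells at 304 and 254 CPM. Pooled over depth, it was higher in the lineage and cycling classes of both libraries. In Pf4-positive cells it was at 428 and 345 CPM, in Mpo-positive cells at 441 and 371 CPM, in Car1-positive cells at 456 and 413 CPM and in Mki67-positive cells at 428 and 370 CPM. Relative to the median of the group, its log2 ratio to cells of no class was +0.57 (WT) and +0.56 (KO-labelled) in the Pf4 class. The values were +0.58 and +0.61 in the Mpo class, +0.58 and +0.75 in the Car1 class and +0.57 and +0.65 in the Mki67 class. Depth moved with this: in cells of 16000 UMIs or more against those of 4000 to 8000 the value was +0.75 and +1.02. The parts of depth and class in these values were not tested.

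**Figure D4:**
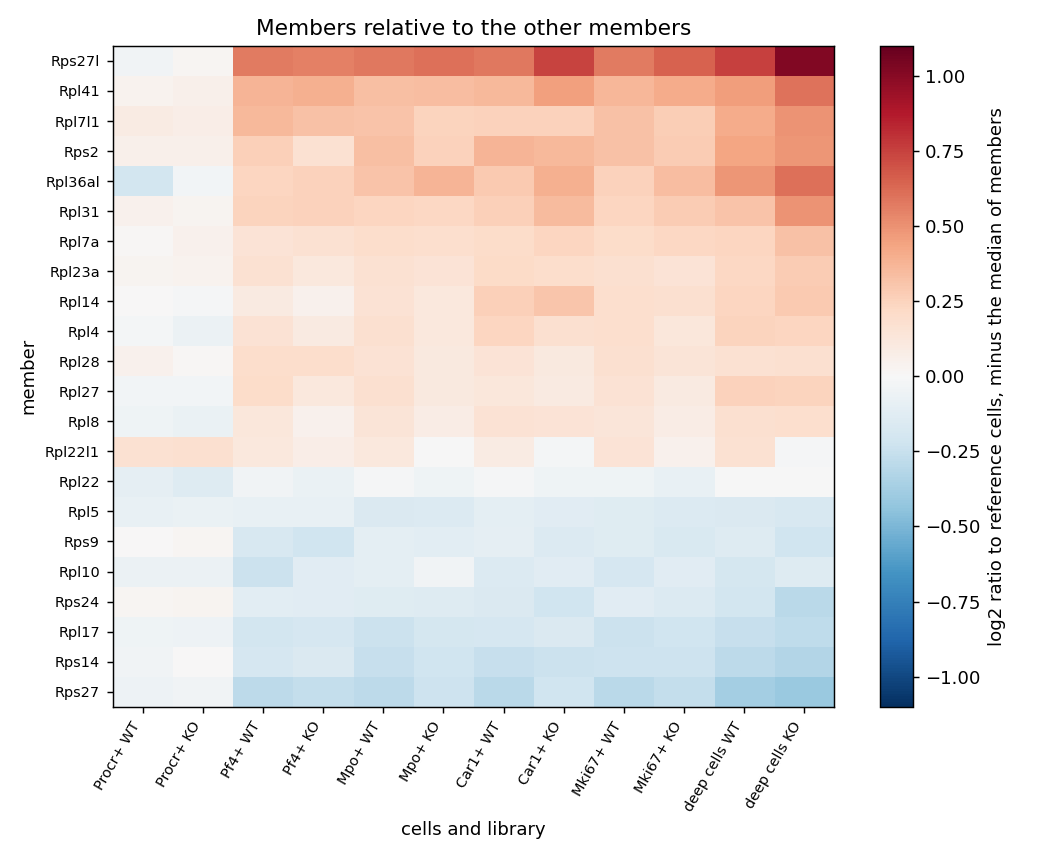
Log2 ratio of CPM in each class over cells of no class, or in deep cells (16000 UMIs or more) over shallow ones (4000 to 8000), minus the median of the group, as colour from blue (lower) to red (higher), for the 20 ribosomal protein genes with the largest mean distance from that median and for Rpl22 and Rpl22l1 (rows), in both libraries (columns). Rps27l is the darkest red row in every pair of columns but the Procr pair, up to +1.02 in deep KO-labelled cells.

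Set against its partner, Rps27l differed more between the libraries, because Rps27 itself was higher in the KO-labelled library (ratio 1.19). There were 18.0 Rps27l UMIs per 100 Rps27 UMIs in WT (17.9 to 18.2) and 12.6 in KO-labelled cells (12.4 to 12.7). In Procr-positive cells the values were 11.4 and 8.47, and in cells of no class 11.3 and 8.17. In Pf4-positive cells they were 20.4 and 14.4, in Mpo-positive cells 20.7 and 14.6, in Car1-positive cells 20.8 and 15.9 and in Mki67-positive cells 20.6 and 15.4. The KO-labelled value was lower in each group, and among male cells it was 13.0 against 18.7. By depth it ran from 8.96 in WT and 6.27 in KO-labelled cells under 4000 UMIs to 26.4 and 24.4 at 24000 or more. It was lower in the KO-labelled library in 8 of 8 depth bins, in 8 of 8 among Mki67-positive cells and in 7 of 7 among Mki67-negative cells. These counts reflect both genes of the pair, not Rps27l alone. At 24000 UMIs or more the level of Rps27l itself was 502 CPM in WT and 516 CPM in KO-labelled cells, so there the lower value came with more Rps27 (1905 and 2113 CPM).

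Rpl22l1, the paralogue of the RNA-binding protein Rpl22, did not meet the rule for standing apart. Rpl22l1 (ENSMUSG00000039221, chr3:28805436-28807424, plus strand) was at 809 CPM in WT and 832 CPM in KO-labelled cells, a ratio of 1.03 (1.02 to 1.04). Rpl22 (ENSMUSG00000028936, chr4:152325742-152334071, plus strand) was at 1768 and 1926 CPM (1.09). There were 45.8 Rpl22l1 UMIs per 100 Rpl22 UMIs in WT and 43.2 in KO-labelled cells. Procr-positive cells had the highest value in both libraries, 49.97 (48.7 to 51.3) and 50.6 (49.2 to 52.0), against 41.6 and 40.7 in cells of no class. In that class Rpl22l1 was 0.17 above the median of the group on the log2 scale in both libraries, the highest of all members in both. By depth the KO-labelled value was lower in 6 of 8 bins.

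Of the remaining pairs, Rpl7l1 was at 4.09 UMIs per 100 of Rpl7 in WT and 3.95 in KO-labelled cells. Rpl36al was at 8.01 per 100 of Rpl36a in WT and 7.33 in KO-labelled cells, and in Procr-positive cells at 5.80 and 5.88. Rpl39l, with few UMIs, was at 0.0106 per 100 of Rpl39 in WT and 0.00304 in KO-labelled cells.

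Besides Rps27l, the members farthest above the median of the group in the lineage, cycling and deep cells were Rpl41, Rps2, Rpl36al and Rpl7l1. Rpl41, which encodes the shortest ribosomal protein, was at 2395 and 2358 CPM in cells of no class (WT and KO-labelled) and 2940 and 3003 CPM in Car1-positive cells. Rps2 was at 3277 and 3722 CPM and at 4070 and 4447 CPM in the same cells. Rps27 moved the other way, from 2809 and 3228 CPM in cells of no class to 2189 and 2594 CPM in Car1-positive cells. Rps14, Rpl17, Rpl5 and Rps24 also lay under the median there. None of these reached 0.5 in both libraries.

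Other genes of translation were divided in direction, and their counts are set beside the 34.9% of all genes that were higher and the 65.1% that were lower. Those shares depend on the total used. With mitochondrial and ribosomal protein genes left out of it, 45.8% of all genes were higher, and the counts below are not given for that total. Among ribosome genes whose symbols the rule does not take, Fau, the precursor of Rps30, was at 3003 CPM in WT and 3537 CPM in KO-labelled cells (ratio 1.18). Rack1, a scaffold on the small subunit, had a ratio of 1.099. Of 29 translation factors 11 were higher and 18 lower, with a median log2 ratio of -0.04, close to the shares of all genes. Eif3f, a subunit of initiation factor eIF3, had the highest ratio (1.17) and Eif4g1, the scaffold of the cap-binding complex, the lowest (0.719). Of 10 other genes with TOP mRNAs 6 were higher and 4 lower. Eef1a1, the elongation factor that brings aminoacyl-tRNA, was at 6518 and 7593 CPM (1.16) and Nap1l1, a histone chaperone, at 516 and 393 CPM (0.761).

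Genes of the mitochondrial ribosome were mostly lower, with a median near that of all genes (-0.07). Of 74 measured, 17 were higher and 57 lower, with a median log2 ratio of -0.09, ranging from Mrps25 (0.8002) to Mrpl9 (1.12). Of 9 regulators of ribosomal protein synthesis at 20 CPM or more, 2 were higher and 7 lower, within about 1 gene of the share of all genes. Myc, which drives transcription of ribosome genes, was at 72.2 CPM in WT and 80.5 CPM in KO-labelled cells (1.11), and Mycn at 34.4 and 26.4 CPM (0.768). Larp1, which binds TOP mRNAs, was at 96.1 and 75.7 CPM.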

How the data were processed

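Single-cell libraries of sorted LSK CD150+ bone marrow cells were used, 1 per genotype label. The UMI counts per gene and barcode were deposited by the authors, made with Cell Ranger 2.1.1 and mm10 per the submitters' processing notes. A software version of 3.1.0 stands in the matrix headers. The labels' protocols give the 3′ v2 kit. The counts carry no normalization.

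Barcodes with 500 or more genes and at most 10% mitochondrial UMIs were kept, and 497 WT and 629 KO-labelled barcodes were left out. Doublets were not removed. UMIs were summed over cells and divided by the library total (CPM). Medians and counts took genes with 20 CPM in one library or both. Shares have Clopper-Pearson intervals, ratios exact conditional binomial intervals. A library at 0 was set to 3 counts. No test was made. UMIs stand for molecules, and intervals cover counting error only.

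A gene stood apart when its log2 ratio was 0.5 or more from the median of members, between libraries or, in both, between a class and cells of no class, with 100 or more UMIs. Named genes were the 8 highest in level, the 8 highest and 8 lowest ratios, genes apart, listed paralogues with partners, and members of the role lists. Values of some of these genes are not reported here, while all counts include them. Members beyond these (such as Rps2) are given because they lay next to Rps27l, chosen after their values were seen. Members and lists were chosen with earlier results of these data known. For Rps4l, Gas5 and Gnb2l1 the gene tables have no entry under those symbols.

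Promoter windows are RefSeq's on GRCm38.p6, matched by symbol, 1 per gene: the one nearest the GENCODE M21 start for members, the first listed for other genes. Depth weighting used bins that begin at 0, 4000, 6000, 8000, 10000, 12000, 16000 and 24000 UMIs. On simulated sums for 5753 genes, 200 of them changed, 95.1% of intervals held the true ratio. These sums were drawn with counting error alone, so the check covers the calculation and no spread between cells or libraries. Alternatives covered cell filters, sex, denominators, thinning to 3000 UMIs, floors and TMM factors (edgeR 4.0.16). Python 3.11.15, numpy 2.4.6, scipy 1.17.1, pandas 2.3.3 and matplotlib 3.10.9 were used.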

Additional observations from a re-analysis of the deposited data

Results flagged for a closer look

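In 4 ribosomal protein genes the ratio of KO-labelled to WT cells lay above 1 in some groups of cells and below 1 in others, with counting intervals on opposite sides. The differences were not tested, and the intervals cover counting error only. Rpl22l1 had a ratio of 0.982 in Car1-positive cells and 1.09 in cells of no class. Rpl31 had 0.944 in Procr-positive and 1.02 in Car1-positive cells. Rpl41 had 0.961 in Procr-positive and 1.02 in Car1-positive cells. Rps15 had 0.975 in Mki67-positive cells and 1.02 in cells of no class.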

How the results depend on the processing

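All 43 alternative values of the share ratios were above 1 (1.05 to 1.13), and all 8 of the Rps27l ratio below 1 (0.781 to 0.886). No paired analysis was possible because there was 1 library per genotype, and no library could be left out. With at least 1000 genes and at most 5% mitochondrial UMIs, which took 4985 WT and 8701 KO-labelled cells, the share ratio was 1.120, and 1.128 (Procr), 1.089 (Pf4), 1.118 (Mpo), 1.088 (Car1) and 1.090 (Mki67) in the classes. Without the 5% deepest cells it was 1.107, and 1.067, 1.078, 1.109, 1.099 and 1.085 in that order. In male cells it was 1.117, and 1.085, 1.113, 1.103, 1.0996 and 1.092. Without mitochondrial genes in the total it was 1.096, and 1.067, 1.075, 1.097, 1.077 and 1.078. With equal weights for depth bins it was 1.097, and 1.056, 1.078, 1.103, 1.085 and 1.089. It was 1.101 without a filter on barcodes, 1.111 for the median cell and 1.090 with equal weights for classes. Cells in exactly 1 class gave 1.054, 1.076, 1.122, 1.095 and 1.114, and higher marker thresholds 1.070, 1.069, 1.101, 1.053 and 1.078.

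The median log2 ratio was 0.17 under the stricter cell filter, 0.15 in male cells, 0.13 without mitochondrial genes, 0.19 without mitochondrial and ribosomal protein genes in the total and 0.23 with TMM factors. Within classes it was 0.10 (Procr), 0.11 (Pf4), 0.14 (Mpo), 0.11 (Car1), 0.11 (Mki67) and 0.16 (none). The counts that follow are of ribosomal protein genes, and shares of all genes past the same folds under these settings are not given. Genes above 1 made up 34.9% of all genes as reported, 34.1% under the stricter filter and 35.1% in male cells. They made up 45.8% without mitochondrial and ribosomal protein genes in the total, 57.3% with TMM factors and 36.6% with no floor. Members with a log2 ratio of 0.32 or more numbered 1 under the stricter filter, 1 in male cells, 1 without mitochondrial and ribosomal protein genes in the total, 7 with TMM factors and 2 with no floor on CPM. Those as far below 0 numbered 1 under the stricter filter, without the deepest cells, with cells thinned and with no floor. The 1.1-fold count upward was 65 without mitochondrial and ribosomal protein genes in the total and 68 with TMM factors, and downward 2 with no floor. Under TMM factors and under that total, ratios turned above 1 for Rpl21 (1.045 and 1.014), Rpl23a (1.045 and 1.014), Rpl31 (1.053 and 1.022), Rpl41 (1.046 and 1.015) and Rps15 (1.058 and 1.026), since both scalings raise every ratio by 1 factor.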
